A study of Drosophila melanogaster with 2 samples.

Results

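The genes described here are 127 very long named genes of Drosophila melanogaster, each at least 50 kb from start to end with introns included. They were taken from the 15627 genes of the deposited table by position, width and name. They lie on the dm3 arms 2L (start below 22000000), 3L (start below 22900000), 3R (start above 400000) and X (start below 21800000). Genes known only by a CG number or with no symbol were left out, as were Antp, Ubx, side and the dpr, beat, ionotropic neurotransmitter receptor and pickpocket families. No ChIP or input value is part of the rule. The samples were 1 library of chromatin immunoprecipitated (ChIP) with an antibody against dBigH1 and 1 input DNA library, made with no antibody. Both are labelled as early embryos of the w1118 stock, a laboratory strain with a partial deletion of the eye colour gene white, collected 0 to 2 h after fertilization. Over white (w) the input level was low, 1.82 RPKM, and the ChIP level was not, 5.42 RPKM, so the ChIP library goes against its w1118 label there. Whether the libraries share their flies cannot be told from these files, and each ratio of ChIP to input below carries that limit.

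dBigH1 is the linker histone that the Drosophila mother supplies to the early embryo. A linker histone binds where DNA enters and leaves the nucleosome, and dBigH1 gives way to the somatic histone H1 around cellularization, when zygotic transcription spreads. Very long genes of the fly owe their size to long introns, which often hold enhancers and other genes. Many code for proteins of neurons, muscle and pattern formation, and the short nuclear cycles of the early embryo leave little time to transcribe them.

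These genes held many reads each, so counting error was small. They ranged from 50.3 to 394 kb, with a median of 78.8 kb, and 40 were of at least 100 kb. The median member had 4903 ChIP and 3269 input reads, against 98 and 74 for the median of all genes, and no member had fewer than 1902 ChIP or 1101 input reads. Together they spanned 11.6 Mb and held 12.7% of the ChIP reads and 12.4% of the input reads assigned to genes. Each library had been scaled to its own total, 8803832 reads for the ChIP and 6272887 for the input. With 1 library on each side there were no replicates, and no test between the libraries was possible. The 95% intervals of single genes are exact Clopper-Pearson intervals and cover counting error only, since copies made by PCR are not independent molecules. A lower ratio in every nucleus and a much lower ratio in some nuclei of the embryo cannot be told apart.

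dBigH1 ChIP over input was slightly higher over the long genes than over the typical gene, and differed among them by more than read counting gives. Values are log2((ChIP RPKM + 1)/(input RPKM + 1)), where RPKM is reads per kb of gene, scaled to library depth. The 127 genes had a median of 0.05, against -0.04 over all genes and -0.05 over the other 11748 genes of the same arm windows. They ran from -0.31 to 0.27, and 97 of the 127 lay above the median of all genes (the all-gene median below). The SD among them was 0.11, while counting error alone gave 0.03. Such a spread was not particular to the members. These 2 values were 0.15 and 0.05 over genes of 20 to 50 kb in the same windows. They were 0.15 and 0.03 over the long named genes of 2R, and 0.12 and 0.03 over long genes with a CG number or no symbol. Summed over all members and without the added 1 RPKM, the reads gave 0.04 (0.03 to 0.04). The same sum gave 0.0051 over all genes and -0.02 over the other genes of the windows. The genes of 20 to 50 kb in the same windows had a median of 0.03, and against all other genes of at least 20 kb there the long genes differed by 0.010.

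At least 0.2 above the median of all genes, a 1.15-fold difference, lay 16 members (12.6%), against 22.8% of all genes. At least 0.2 below it lay 3 members (2.36%), against 24.3% of all genes. Both shares were under the background. The SD over the other genes of the windows was 0.35, with 0.28 given by their counting error. By counting interval, 77 members (60.6%) exceeded that median and 16 (12.6%) fell short of it, against 10.6% and 9.59% of all genes. These counts grow with depth, so the 553 genes of 20 to 50 kb in the same windows are the closer comparison. Among those, 44.3% lay above and 15.7% below by interval, and 17% and 6.87% by the 0.2 difference. With a pseudocount of 5 RPKM in place of 1, 0 members lay 0.2 above and 0 below. A larger pseudocount shrinks the ratio of every gene while the limit of 0.2 stays fixed. The share of all genes under that setting is not given here.

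**Figure D1:**
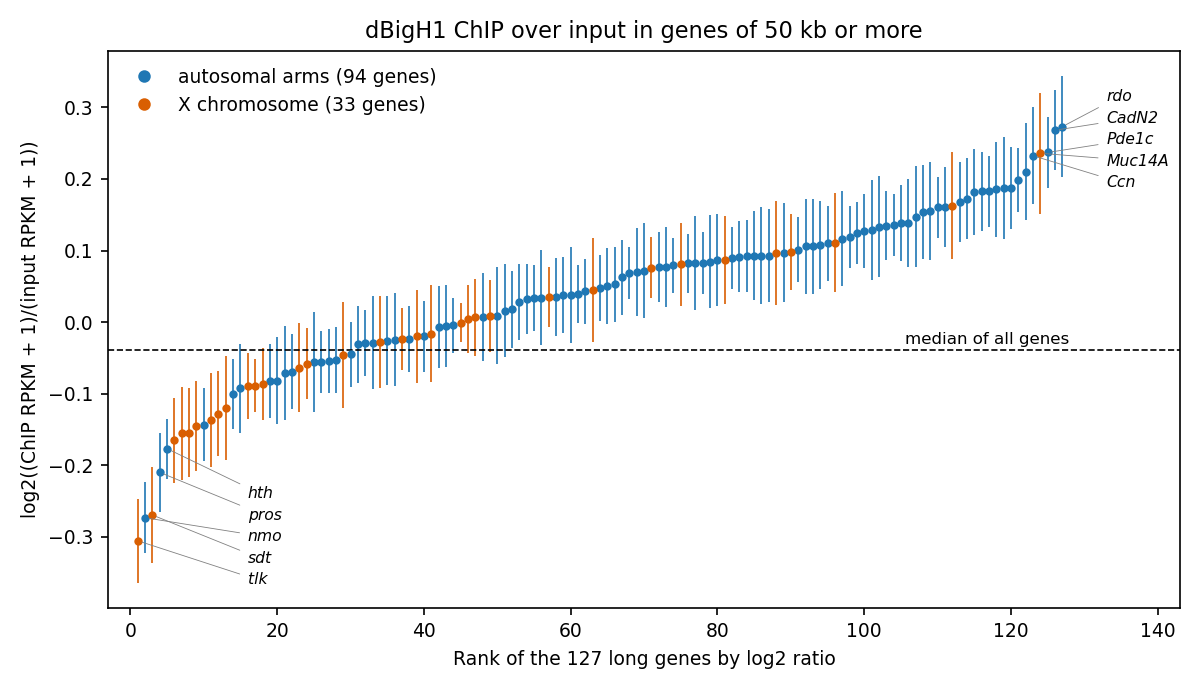
The 127 long genes in the order of their log2 ratio of dBigH1 ChIP to input (vertical axis), with exact 95% counting intervals as bars. The dashed line is the median of all 15627 genes (-0.04), and X-linked genes (orange) are spread over the ranks but make up 6 of the 10 lowest.

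The 5 lowest long genes code for kinases, a polarity scaffold and homeodomain proteins. tlk, the Tousled-like kinase gene that acts in chromatin assembly (FBgn0086899, dm3 X:3614040-3683803), had a ChIP level of 6.25 RPKM and an input level of 7.95. Its log2 ratio of -0.31 (-0.36 to -0.25) was the lowest of the 127. nmo, which codes for a kinase of Wnt signalling and planar polarity (3L:7972146-8047247), had 8.61 and 10.6 RPKM and a ratio of -0.27 (-0.32 to -0.22). Both of its levels were the highest of any long gene. sdt, the gene of the Crumbs partner Stardust in apical polarity (X:8072582-8134507), had 4.97 and 6.20 RPKM and a ratio of -0.27 (-0.34 to -0.20). These 3 were the members at least 0.2 below the all-gene median.

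pros, a homeodomain factor of neural precursors (3R:7155624-7232782), had a ChIP level of 6.60 RPKM and an input level of 7.79, a ratio of -0.21 (-0.27 to -0.15). hth, whose product brings the Hox cofactor Exd into the nucleus (3R:6335569-6464386), had 7.12 and 8.17 RPKM and a ratio of -0.18 (-0.22 to -0.14). In each of these genes the input level was above the ChIP level. The mucin gene Mur2B (-0.17), the myosin light chain kinase gene Drak (-0.16), the T-box gene bi (-0.15), the homeodomain gene ct (-0.14) and the adhesion gene ed (-0.14) completed the 10 lowest. Mur2B overlaps br (-0.13), the Broad zinc finger gene, and reads in the overlap may belong to either. They were the 1 overlapping pair among the members. The span of bi is covered in full by 1 gene of at least 20 kb outside the members, so its reads may also belong to that gene.

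The 10 highest long genes included those of a cadherin, a phosphodiesterase, a mucin, a collagen and dystrophin. rdo, reduced ocelli (FBgn0243486, 2L:18012407-18070249), had a ChIP level of 6.28 RPKM and an input level of 5.02, a ratio of 0.27 (0.20 to 0.34). CadN2, a neuronal cadherin gene (2L:17787278-17875247), had 6.77 and 5.45 RPKM and a ratio of 0.27 (0.21 to 0.32). Pde1c, a calmodulin-dependent phosphodiesterase gene (2L:11814930-11928570), had 6.43 and 5.30 RPKM and a ratio of 0.24 (0.19 to 0.29). In these genes the ChIP level was above the input level, and their intervals lay apart from those of the 10 lowest genes.

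Muc14A, a mucin gene of the X (X:15903161-15955708), had the lowest input level of all members, 3.34 RPKM, with 4.11 in the ChIP and a ratio of 0.24 (0.15 to 0.32). It was the 1 X-linked gene among the 10 highest. Ccn, a matricellular growth factor gene (3L:17683115-17741939), had 6.72 and 5.57 RPKM and a ratio of 0.23 (0.16 to 0.30). The peptide receptor gene NepYr (0.21), named RYa-R in the current RefSeq table, and the dystrophin gene Dys (0.20) followed. The peptidase gene ome (0.19), the collagen gene mp (0.19) and the ankyrin gene Ank2 (0.19) completed the 10.

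The 5 longest genes lay in the middle of this range. kirre, an immunoglobulin gene of myoblast fusion and at 394 kb the longest (X:2634417-3028565), had a ChIP level of 5.18 RPKM and an input level of 5.19, from 17989 and 12824 reads. Its ratio was -0.00061 (-0.03 to 0.03). The teneurin gene Ten-a (206 kb) had a ratio of -0.09 (-0.13 to -0.05). The RNA-binding gene Rbp6 (179 kb) was at 0.08 (0.04 to 0.12), the translational repressor gene pum (171 kb) at 0.07 (0.03 to 0.11) and the cAMP phosphodiesterase gene dnc (167 kb) at 0.03 (-0.0071 to 0.08). Of these, only Ten-a lay below the all-gene median by its interval.

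Across all genes of the arm windows, from 2 to 100 kb, the median ratio was higher in wider classes. On the autosomal arms the median was -0.02 in genes under 1 kb, -0.06 at 1 to 2 kb and at 2 to 5 kb, and -0.02 at 5 to 10 kb. It was 0.03 at 10 to 20 kb, 0.06 at 20 to 50 kb, and 0.09 both at 50 to 100 kb and at 100 kb or more. On the X the corresponding medians were -0.05, -0.19, -0.16, -0.15, -0.13, -0.09, -0.01 and -0.00061. The classes overlap widely gene by gene, and Spearman's correlation of ratio and width was 0.02 over the 11875 genes. Genes are not replicates, and no p is given.

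**Figure D2:**
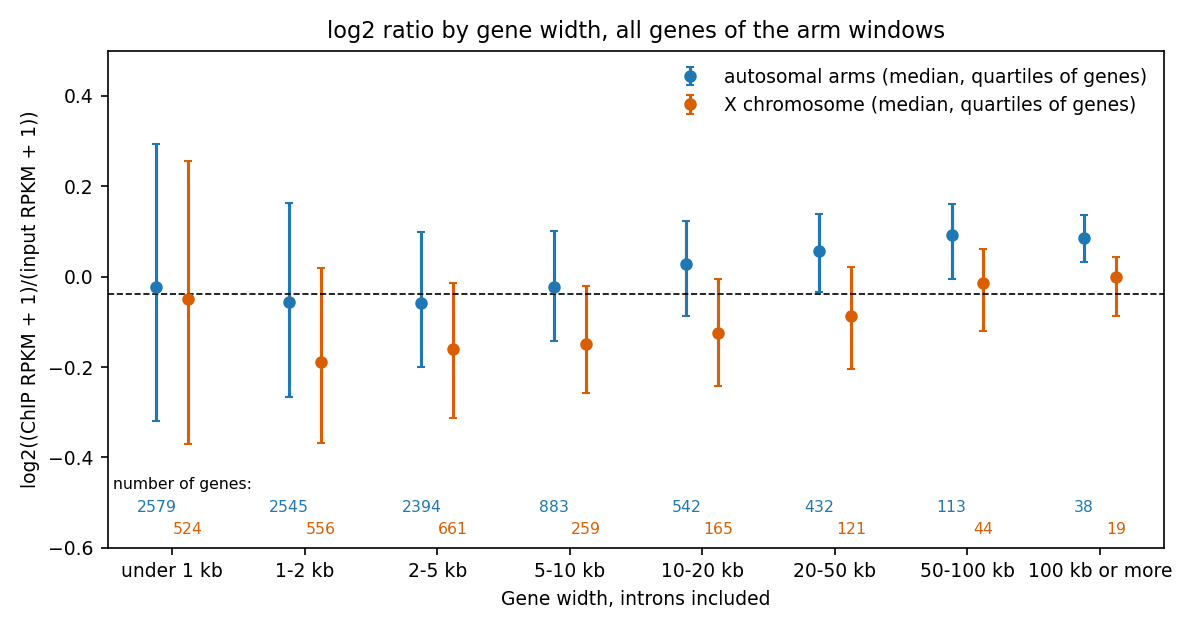
Median log2 ratio of dBigH1 ChIP to input (vertical axis; bars are the quartiles of genes) by gene width class, for all genes of the autosomal arm windows (blue) and the X (orange), with gene numbers below. From 2 to 100 kb both series climb, to 0.09 on the autosomal arms and -0.01 on the X.

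Within the long genes, width and ratio were hardly related. Spearman's correlation was -0.09 over the 127, -0.08 over the 94 autosomal members and 0.02 over the 33 of the X. The 87 members under 100 kb had a median of 0.05 and the 40 wider ones 0.04. Just inside the width limit, Sytbeta (50.3 kb), a synaptotagmin gene, had a ratio of 0.09 and the nuclear receptor gene ftz-f1 (50.7 kb) one of -0.06. Just outside it, alpha-Man-I (49.9 kb), a mannosidase gene, was at 0.04 and the netrin gene NetA (49.8 kb) at -0.08. The 74 long genes of the same windows with a CG number or no symbol had a median of 0.05, the 13 of the excluded families 0.13 and the 32 long named genes of 2R 0.05. By contrast, the 4391 named genes under 50 kb in these windows, without the excluded families, had a median of -0.09.

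Long genes of the X had lower ratios than long autosomal genes, by about as much as other genes did. The 33 X-linked members had a median of -0.02 and the 94 autosomal members 0.08, a difference of -0.10. Over the other genes of the windows the difference was -0.11. By interval, 11 X-linked members (33.3%) lay above the all-gene median and 11 (33.3%) below, against 66 (70.2%) and 5 (5.32%) of the autosomal members. Among genes of 20 to 50 kb, 14.9% lay above and 38.8% below on the X, and 52.5% and 9.26% on the autosomal arms. The 3 autosomal arms differed little, with medians of 0.08 on 2L (32 genes), 0.08 on 3L (36) and 0.07 on 3R (26). Long genes exceeded the other genes of their chromosomes by 0.10 on the autosomal arms and by 0.11 on the X.

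The level of the X was lower in both libraries. Median input RPKM was 5.39 over the X-linked members and 6.77 over the autosomal ones, a ratio of 0.796. Median ChIP RPKM was 5.30 and 7.05, a ratio of 0.752. Over the other genes these ratios were 0.748 in the input and 0.692 in the ChIP. The labels do not state the sex of the embryos.

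Differences among the long genes were larger in the input than in the ChIP. Over the 94 autosomal members the SD of log2 RPKM was 0.19 in the input and 0.13 in the ChIP, and over the 33 X-linked ones 0.23 and 0.15. The same held for other genes of the windows with many input reads. Their SDs were 0.24 in the input and 0.14 in the ChIP over 399 autosomal genes. For 90 X-linked ones they were 0.26 and 0.18. Long genes with a low ratio had a high input. The ratio that ranked them divides by this input, so the contrast that follows is partly built in. Of the 10 lowest members, 9 had an input above the median of the long genes of their chromosome class (autosomal or X), from 0.875 to 1.57 times that median. Of the 10 highest, 0 had an input above it, with a range of 0.62 to 0.948 times. ChIP levels of the same genes ran from 0.773 to 1.22 times the median in the lowest 10 and from 0.776 to 1.06 in the highest 10, and so overlapped. In the ChIP, 7 of the lowest 10 and 1 of the highest 10 lay above that median.

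Over the autosomal members Spearman's correlation of ratio and input RPKM was -0.76, and of ratio and ChIP RPKM -0.20. Over the X-linked members the values were -0.66 and -0.11. The ratio and the input share the input reads, so a negative relation is partly built in. With autosomal and X-linked genes mixed, the correlation of ratio and input RPKM was -0.38 over the 127 members. Mixed in the same way, the genes of 20 to 50 kb had a correlation of -0.53. ChIP and input RPKM rose together, with a correlation of 0.75 over the autosomal and 0.72 over the X-linked members.

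**Figure D3:**
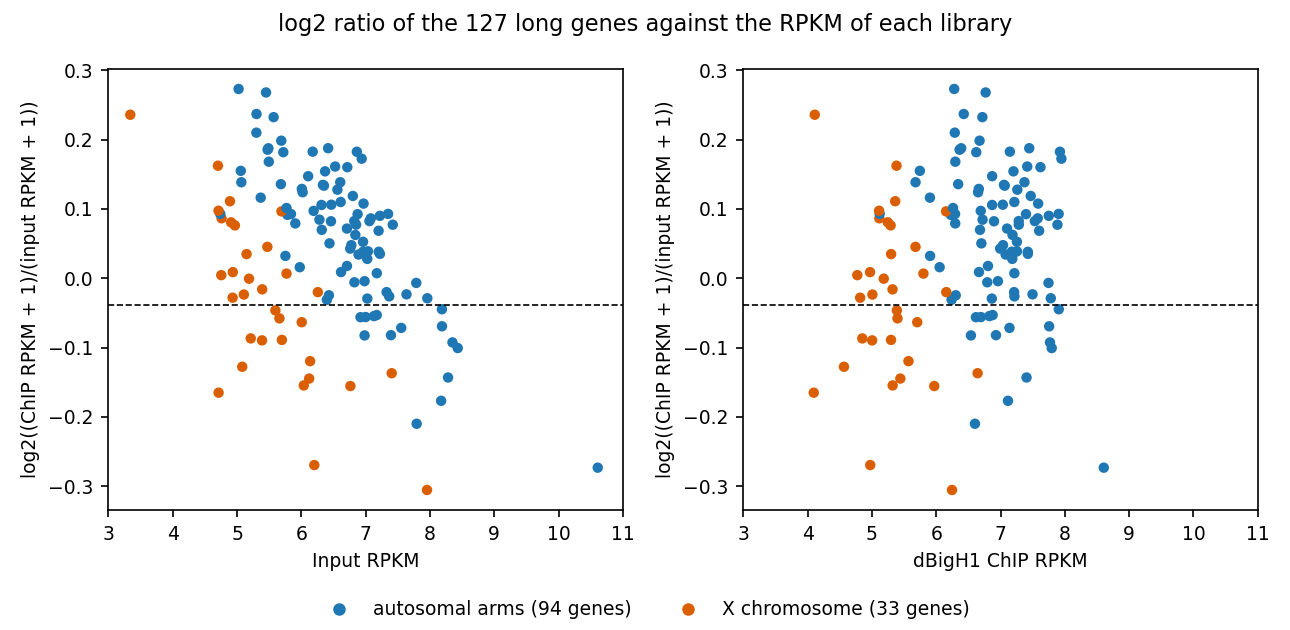
log2 ratio of each of the 127 long genes against its input RPKM (left) and its dBigH1 ChIP RPKM (right), with autosomal genes in blue, X-linked genes in orange and the median of all genes dashed. The ratio falls with input RPKM within each colour (Spearman's correlation -0.76 and -0.66) and shows a weak relation to ChIP RPKM (-0.20 and -0.11).

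By function, the long genes of transcription factors mostly lay below the median of the long genes, though near that of all genes. Of the 127 members, 113 were placed in 8 lists of known function, sif and trol in 2 lists each. Over the 127, 60.6% lay above the all-gene median by interval and 12.6% below, against 10.6% and 9.59% of all genes. Counts by interval in each list below stand beside these shares. The 21 transcription factor and chromatin genes had a median of -0.06, and 20 of them lay below the median of the 127. Of the 106 other members 43 lay below it, and their median was 0.08. By interval, 6 of the 21 lay below the all-gene median (pros, hth, bi, ct, br and bun) and 3 above it. Of the 21, 4 are X-linked (bi, ct, br and mamo), and these lay between -0.15 and -0.09. Among the 17 autosomal factors the median was -0.03 and 16 lay below the median of the 127, against a median of 0.09 over the 77 other autosomal members. Set against all genes, 9 of these 17 lay above the all-gene median and 8 below, 3 each way by interval, and 0 of the 21 lay 0.2 below it. The chromatin assembly kinase gene tlk (-0.31), which did lie 0.2 below it, was placed in no list.

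The autosomal factors ranged from pros to fru, the sex-specific behaviour gene, which was highest of the list with 6.26 RPKM in the ChIP, 5.77 in the input and a ratio of 0.10 (0.06 to 0.15). The nuclear receptor gene ftz-f1, nearest the list's median, had 6.62 and 6.92 RPKM and a ratio of -0.06 (-0.13 to 0.01). The ecdysone-induced genes Eip75B (-0.03) and Eip74EF (-0.02) lay a little above it, and the ETS gene pnt (-0.09) and the FOG gene ush (-0.08) below it. Median input RPKM of the 21 was 6.98, against 6.42 over the 127, and its part in their low ratios was not tested. Over all 249 genes of any width that the table holds from this list the median was -0.11, lower than over the long ones. Without the 4 factors added by name, 16 of 17 lay below the median of the 127.

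The 12 long genes of growth factor and developmental signalling had a median of -0.03, with 4 members above and 3 below the all-gene median by interval. nmo was lowest. sif, an exchange factor for Rac that is also in the cytoskeletal list, was nearest the median with 6.24 RPKM in the ChIP, 6.40 in the input and a ratio of -0.03 (-0.08 to 0.02). The cyclin-dependent kinase gene Eip63E was highest (0.09, 0.04 to 0.14). Of the 6 genes that were in the list before names were added, 0 lay below by interval and the median was 0.01. The list's median minus the all-gene median was 0.01, and its sign turned, to -0.0033, after a lowess correction for level. Over the 137 listed genes of any width the median was -0.07.

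The 24 genes of cell adhesion and axon guidance, receptors and ligands by which neurons and muscles recognise each other, had a median of 0.09. By interval 16 (66.7%) lay above the all-gene median and 3 (12.5%) below, against 60.6% and 12.6% of the 127 members. ed, an immunoglobulin adhesion gene (ChIP 7.40 and input 8.28 RPKM), was lowest with -0.14 (-0.19 to -0.09), and CadN2 was highest. Sema-1a, a transmembrane semaphorin, lay nearest the list's median with 7.28 and 6.82 RPKM and a ratio of 0.08 (0.04 to 0.13). The 17 autosomal members had a median of 0.10 with 14 above by interval, and the 7 X-linked ones -0.06 with 2 above. The cadherin gene CadN was at 0.16 (0.12 to 0.20), apart from CadN2, while the intervals of the teneurin genes Ten-m (-0.05) and Ten-a (-0.09) overlapped. fred (0.17, 0.11 to 0.22) and its 2L relative ed had intervals that did not overlap. Over the 93 listed genes of any width the median was -0.00061.

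All members listed under ion channels, G protein-coupled receptors and second messengers lay above the all-gene median, as did 97 of the 127 members. Ionotropic neurotransmitter receptor and pickpocket genes are outside the rule. The 7 ion channel genes had a median of 0.08, from the potassium channel gene SK (-0.02, -0.08 to 0.05; ChIP 5.32 and input 5.39 RPKM) to the cyclic nucleotide-gated channel gene cngl (0.16, 0.09 to 0.24; 5.38 and 4.70). The gap junction gene shakB was at 0.08. Of the 7, 6 are X-linked, and these had a median of 0.06 against -0.02 over all X-linked members. The 11 genes of G protein-coupled receptors and second messengers had a median of 0.08, and 8 lay above by interval. They ran from rg (-0.02, -0.07 to 0.02), which codes for a kinase anchor protein, through the allatostatin receptor gene AlstR (0.08) to Pde1c. Without the 4 genes added by name the median was 0.03, with 4 of 7 above by interval.

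All 9 RNA-binding genes lay above the all-gene median by their intervals, as did 70.2% of the autosomal members and 10.6% of all genes. They spread little, from heph (ChIP 7.26 and input 7.04 RPKM, 0.04), which codes for the polypyrimidine tract-binding protein, through Rbp6 (0.08) to bru-2 (6.66 and 6.01, 0.13). The median was 0.08, and the SD of 0.04 compares with 0.02 from counting. All are autosomal. Over the 42 listed genes of any width the median was -0.09.

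The 21 genes of cytoskeleton, scaffold and muscle proteins had a median of 0.09. By interval 15 (71.4%) lay above the all-gene median and 2 (9.52%) below, against 60.6% and 12.6% of the 127 members. Those below were sdt and pigs (-0.12), both on the X. The 17 autosomal genes of the list had a median of 0.09 with 14 above by interval, and the 4 X-linked ones -0.06 with 1 above. Dys was highest, and Ank2 and sls (0.18), which codes for the giant muscle protein Sallimus, were also high. Msp-300 (0.13), a nesprin of muscle nuclei, was of the same range, and the adaptor gene X11Lbeta (0.09) was nearest the median. The 10 genes of extracellular matrix, secretion and heparan sulphate, a list drawn up from the members' names, had a median of 0.13. Of these, 8 (80%) lay above by interval. They ran from Mur2B through the furin protease gene Fur1 (0.12) to Muc14A. The 14 members in no list had a median of 0.03, from tlk through l(3)82Fd (0.04) to rdo. Differences between lists were not tested.

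**Figure D4:**
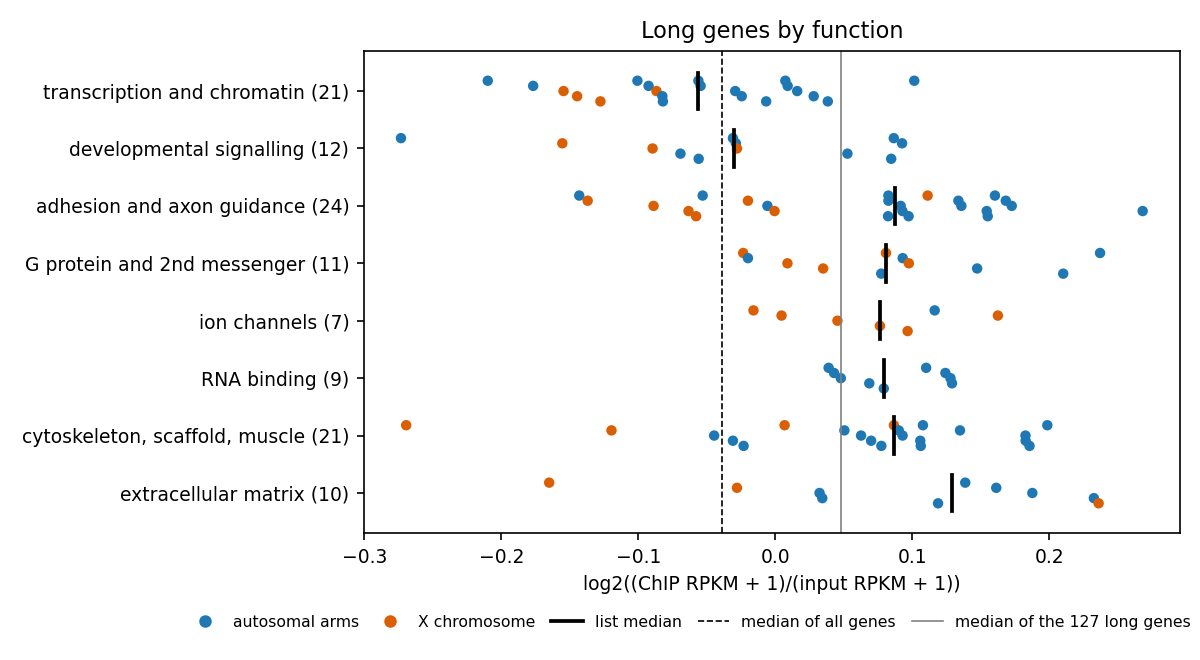
log2 ratio (horizontal axis) of the long genes in each list of function, with autosomal genes in blue, X-linked genes in orange, list medians as black bars, the median of all genes dashed and that of the 127 long genes grey. Of the 21 transcription and chromatin genes 20 lie left of the grey line. All 9 RNA-binding genes lie right of the dashed line, as do 79 of the 94 autosomal long genes.

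Most of the long genes contain other genes, whose values were partly like those of their host. Of the 127, 94 had at least 1 gene wholly inside them, 292 genes in all, and kirre had 22. Other genes covered a median of 2.58% of a member's span. The 292 genes had a median ratio of 0.08 against -0.05 over the 11369 genes under 50 kb of the same windows that lie elsewhere. By interval, 31 of them (10.6%) lay above the all-gene median, the same share as over all genes (10.6%), and 5 (1.71%) below it, against 9.59%. Whether a read inside both genes was counted for both was not given in the sources used here, so host and inner gene may share reads. Over the 84 hosts whose inner genes had at least 20 input reads in all, Spearman's correlation of host and pooled inner genes was 0.38 (0.46 over 69 autosomal hosts, 0.33 over 15 of the X). The host exceeded its pooled inner genes in 39 of the 84, in 37 of the 69 autosomal hosts and in 2 of the 15 on the X. On the X the median was 0.0054 over hosts and 0.096 over their pooled inner genes, without the added 1 RPKM.

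pros held some of the 5 low inner genes. KP78a and KP78b, kinase genes inside it, are given the same span (3R:7172014-7178853) and the same reads, so their values are those of 1 region. That region had a ChIP level of 6.34 RPKM and an input level of 10.4, a ratio of -0.63 (-0.81 to -0.45), below that of pros itself. The region held 382 of the 4485 ChIP reads of pros if it was counted there. Inside kirre lies white (w, X:2684632-2690499), with 67 input and 280 ChIP reads and a ratio of 1.19 (0.91 to 1.45). Its input level was far below the 5.19 RPKM of kirre, and its ChIP level was not below the 5.18 of kirre, against the w1118 label of that library. These reads amount to 0.522% of those of kirre in the input and 1.56% in the ChIP.

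Most long genes had a higher ratio than the genes beside them. The non-overlapping genes within 100 kb, with their reads pooled for each member, had a median log2 ratio of -0.0081 without the added 1 RPKM. The members had 0.05 on this scale, and 87 of the 127 exceeded their neighbourhood. Member and neighbourhood were weakly related, with Spearman's correlation of 0.19 over the 94 autosomal members and 0.32 over the 33 of the X. With the nearest gene on each side, 77 of 127 members exceeded their neighbours. The 27 members that overlap no other gene were centred on 0.01, and 12 are X-linked. The 100 that overlap another gene had a median of 0.07, and 21 of these are X-linked. Among autosomal members the medians were 0.02 (15 genes) and 0.08 (79 genes).

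**Figure D5:**
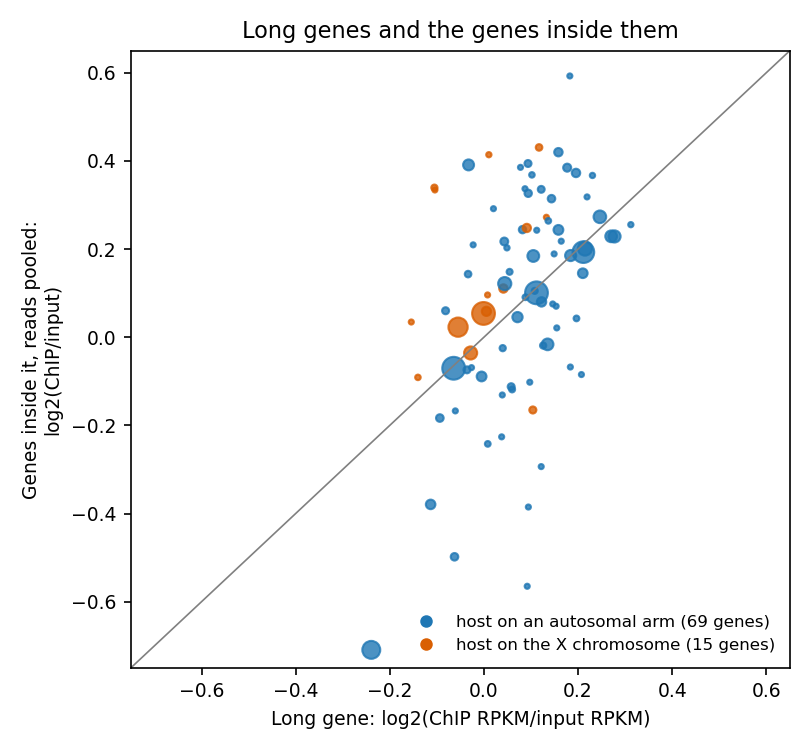
Pooled log2 ratio of ChIP to input over the genes inside a long gene (vertical axis) against that of the long gene itself (horizontal axis), for the 84 hosts with enough reads, with autosomal hosts in blue and X-linked hosts in orange. Larger points have more input reads over the inner genes, the line marks equality, and the point at the lower left is pros.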

How the data were processed

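The members and gene lists were chosen with earlier results of these data known. Library preparation, per the labels' protocols, began with 3.5 ng of DNA and used fragments of 300 to 350 bp, 18 PCR cycles and single reads of 50 nt. Bowtie2, CASAVA 1.9, R 2.15, FastQC 0.10 and the build dm3 appear in the submitters' processing notes, without roles. The counting tool was not given in the sources used here.

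Per the file headers, the authors deposited log2 RPKM per gene and library, and a MAnorm score. The values were log2(RPKM + 1) from whole reads (largest deviation 6.91e-11 reads), which gave the reads per gene. The score (SD 1.00 over all genes) was kept as an alternative. Ratios used a pseudocount of 1 RPKM and no filter. Procedures were tested on simulated data.

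Lists of function were written from textbook roles; 84 members fell in them, and 29 were added once members' names were known. Genes named are the 10 lowest, 10 highest and 5 longest members, the lowest, middle and highest of each list, and those beside the width limit. Relatives, host genes, overlapping genes and other examples were chosen after their values were seen. Current symbols came from a RefSeq table of Release 6, matched by Entrez number for 125 members. Planned promoter motifs were not analysed here. Alternatives were other pseudocounts, a lowess correction (span 0.3), filters, widths, thresholds and subsets. Tables were handled with pandas 2.3.3 and numpy 2.4.6 in Python 3.11.15, intervals with scipy 1.17.1, lowess with statsmodels 0.14.6 and figures with matplotlib 3.10.9.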

Additional observations from a re-analysis of the deposited data

How the results depend on the processing

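With no pseudocount, 25 members lay at least 0.2 above the median of all genes and the SD among members was 0.13, which it also was with 0.1 RPKM. With 5 RPKM, 0 members lay above and 0 below, the difference from other genes of the windows was 0.063 and the SD 0.074. The lowess correction for level gave a member median of 0.083, and moved the signalling list from above to below the median of all genes, by -0.0033. On the deposited score, whose unit differs, the median was 0.25, the difference 0.25, the X minus autosomal difference -0.26 and the SD 0.35, with 71 members above and 12 below. The 71 members of at least 75 kb gave 8 above and 1 below (45 and 9 by interval). The 40 of at least 100 kb gave 3 and 0 (25 and 3 by interval), with an SD of 0.090. Among autosomal members 1 lay below, and 5 by interval. A threshold of 0.1 gave 61 above and 10 below, and one of 0.3 gave 2 and 0. Shares of all genes under these other settings are not given here, so these counts alone do not set the members apart from all genes.

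Subsets by overlap and the background of long genes were chosen after seeing the data. Members overlapping no other gene had a median of 0.0090 and a difference of 0.058. Against other genes of at least 20 kb the difference was 0.010. With X-linked and autosomal genes mixed, the long genes thus stood apart from short genes but hardly from other wide ones. That background also holds other genes of at least 50 kb. On the X alone the median was -0.02 over members and -0.09 over genes of 20 to 50 kb. On the autosomal arms these medians were 0.08 and 0.06. A further 70 values of these comparisons stayed within the margin set. Of the values for single lists and genes, 97 stayed within it and 42 moved beyond it. Of the 10 lowest and 10 highest genes, at least 9 and 8 were shared under other pseudocounts, lowess and the score. Each group has 1 library, so leaving out a replicate was impossible. No paired analysis was possible because each group holds 1 library and no test was made. Intervals for the score were not run.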
